A study of Mus musculus with 36 samples.

Results

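Liver was compared with epididymal white adipose tissue (eWAT, the fat pad attached to the epididymis) in sons of fathers fed on a high-fat diet (HFD). The comparison took all 6 count columns of the liver table and all 6 of the eWAT table, 12 of the 36 samples of the series, joined by Ensembl gene identifier. All mice were C57BL/6 wildtype males by the labels (C57BL/6N by the study's methods), sired after the fathers had spent 2 weeks on HFD, and the sons themselves stayed on chow. Per tissue the labels name 3 HFD tolerant (HFDt) and 3 HFD intolerant (HFDi) sons, told apart by their glucose tolerance. The columns carry library numbers alone, so the tolerance groups were not separated and a liver could not be paired with the eWAT of the same son. Ages of the sons at dissection are not in the labels, and no library from sons of fathers on a control diet was analysed here. What is compared is therefore 1 organ with another, with the paternal diet common to both.

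Liver and adipose tissue divide the handling of nutrients between them. Hepatocytes, the main cells of liver, secrete most plasma proteins, make glucose and ketone bodies in fasting, turn ammonia into urea and cholesterol into bile acids. White adipocytes store triglyceride in a single large lipid droplet, release fatty acids and glycerol by lipolysis, and secrete hormones such as leptin and adiponectin. Many steps that both organs perform are carried by different members of 1 gene family, for example GLUT2 and GLUT4 for glucose entry. Levels below are CPM, the 3′ end counts of a library brought to a fixed total and scaled by TMM, a method that takes most genes as not differing when it sets the scale between libraries. Each transcript gives 1 tag whatever its length, so levels were not divided by length. Differences are log2 values of liver minus eWAT, positive where liver was higher, with a standard error (SE) and an adjusted p from edgeR. A gene is called higher where the adjusted p, over all genes tested, was under 0.05.

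Depth was 2036237 to 2552454 counts per library in liver and 1338149 to 4055537 in eWAT, and 13977 to 15525 genes had a count in a liver library against 16540 to 21512 in an eWAT library. Pearson's r of log2(CPM + 1), across genes, was 0.958 to 0.973 between liver libraries, 0.924 to 0.979 between eWAT libraries and 0.759 to 0.813 between tissues. The eWAT library numbered 17 stood apart. It correlated at 0.924 to 0.931 with the other eWAT libraries, which correlated at 0.961 to 0.979 among themselves. In it 547 genes lay over 4-fold above every other eWAT library, against at most 6 in any other, and they were led by epithelial and cilium genes described at the end. Mitochondrial rRNA genes took 4.46% of the counts in library 17 and 7.34 to 9.61% in the other eWAT libraries. The biological coefficient of variation was 0.249 in liver and 0.316 in eWAT, and 0.225 in eWAT without library 17. Each count below was therefore taken also without it, and a value is given beside a gene where that library moved the call or moved the difference by over 1.5 times.

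The labels held against the marker genes. All 15 hepatocyte markers were higher in liver and all 15 adipocyte markers were higher in eWAT, where 28.8% and 33.9% of all genes tested were called in these directions. Summed hepatocyte markers came to 99782 to 134573 CPM in liver and 1577 to 2705 CPM in eWAT. Summed adipocyte markers came to 470.2 to 786 CPM in liver and 34200.3 to 64861 CPM in eWAT, with library 17 lowest. Neither sum overlapped between tissues. Of single hepatocyte markers, Cyp2e1 for an ethanol-oxidising P450 overlapped, at 50.6 to 496 CPM in liver, median 188, and 34 to 108 CPM in eWAT, median 80.6 (log2 difference 1.64, SE 0.48, adjusted p = 0.00732).

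Liver and eWAT differed in most of the genes tested. Of 10297 genes tested, 6449 (62.6%) were called, 2962 of them higher in liver and 3487 higher in eWAT. A test against a 2-fold difference kept 3400 genes (33.0%), 1427 (13.9%) higher in liver and 1973 (19.2%) higher in eWAT. The 2 groups of libraries did not overlap for 4457 genes (43.3%), with liver above for 1996 (19.4%) and eWAT above for 2461 (23.9%). Few genes were shown to be alike, since the 95% interval of the difference lay within 0.5 of 0 for 511 (4.96%). The TMM factors were 0.704 to 0.764 in liver and 1.30 to 1.53 in eWAT, and the scaling bears on the direction of small differences. When library totals replaced TMM, the median of all genes moved from -0.09 to -0.98, and 1383 genes were called higher in liver and 6680 higher in eWAT. Among genes named here, the calls of Cyp2e1, Dpp4, Pck1 and Pklr were lost with that scaling. Without library 17 the calls of 6217 genes stayed in the same direction, 0 turned and 288 genes were called that had not been.

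**Figure D1:**
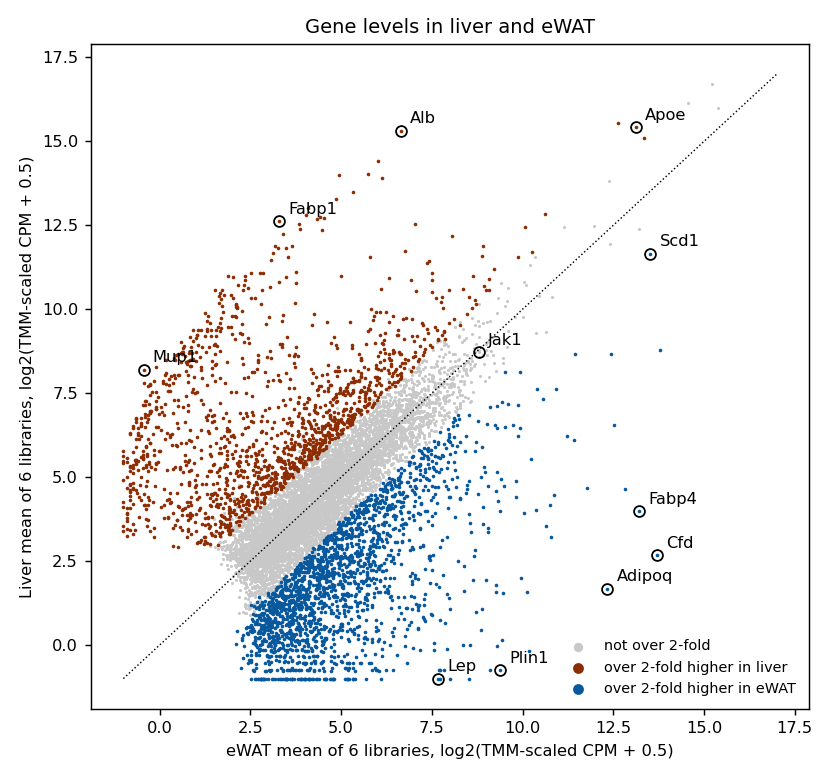
Mean level of each of 10297 tested genes in 6 eWAT libraries (horizontal axis) and 6 liver libraries (vertical axis), as log2 of TMM-scaled CPM plus 0.5. Dark points are the 1427 genes over 2-fold higher in liver and the 1973 over 2-fold higher in eWAT, and the circled genes are named in the text. Alb, Fabp1 and Mup1 lie at the edge of the liver side and Lep, Plin1, Adipoq and Cfd at the edge of the eWAT side.

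Proximal promoters of 2 of the genes that separate the tissues are printed because each holds the letters of a transcription factor site. They are Cyp8b1, for a P450 of bile acid synthesis called higher in liver, and Lep for leptin, called higher in eWAT. Each runs over the 120 bases before the RefSeq start on GRCm38.p6, on the strand of the gene, with the matched letters in capitals. For Cyp8b1 this is chr9:121916306-121916425 on the minus strand and for Lep chr6:29060101-29060220 on the plus strand. RefSeq starts can differ from those of the Ensembl gene models in the tables.
Cyp8b1: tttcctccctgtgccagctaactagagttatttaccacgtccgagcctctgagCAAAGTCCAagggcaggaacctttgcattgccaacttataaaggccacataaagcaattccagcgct
Lep: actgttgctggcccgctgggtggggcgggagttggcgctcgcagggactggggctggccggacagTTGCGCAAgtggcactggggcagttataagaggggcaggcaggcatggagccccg
The capitals of Cyp8b1 match CAAAGTCCA, letters of an HNF4 site. Those of Lep match TTGCGCAA, a palindrome that C/EBP proteins bind. The genes of these proteins were not all on the eWAT side. Cebpb was higher in liver and Cebpa was not called, as given below, while Cebpd ran at 7.42 to 19.1 CPM in liver and 17.1 to 73.6 CPM in eWAT. Both motifs and DR1 (a direct repeat of the nuclear receptor half-site) were searched on both strands over the 250 bases before the start. A window was found for 1081 of the genes over 2-fold higher in liver, 1421 of those over 2-fold higher in eWAT and 27025 genes in all. CAAAGTCCA stood in 13 genes (1.20%) of the liver set, 6 (0.422%) of the eWAT set and 122 (0.451%) of all genes. TTGCGCAA stood in 1 (0.0925%), 6 (0.422%) and 50 (0.185%). The printed promoters are thus not typical. Cyp8b1 was the only 1 of 11 bile acid genes with CAAAGTCCA, and Lep the only 1 of 10 adipocyte markers with TTGCGCAA. Among the 7915 genes tested that had a window, from which both sets come, the shares were 0.455% for CAAAGTCCA and 0.341% for TTGCGCAA. DR1 was found in 11 genes of all and in none of either set. These shares describe letters in a window and were not tested.

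Liver libraries put more of their counts into few genes. The 10 most abundant genes of a library took 37.3% ± 3.49 (SD, n = 6) of the counts in liver and 26.2% ± 2.05 (SD, n = 6) in eWAT (exact two-sided permutation test over 924 arrangements, p = 0.00216, the smallest they can give). These 10 genes were taken with mtDNA-encoded genes and Gm42418, described below, included. The share is thus not separate from that of mtDNA. Genes encoded in mtDNA took 24.2% ± 2.23 (SD, n = 6) in liver and 16.7% ± 1.09 (SD, n = 6) in eWAT (exact permutation test, p = 0.00216). The ranges of this share, 21.7 to 27% and 15.1 to 18.2%, did not overlap, but those of its protein and rRNA parts did. Protein genes of mtDNA took 10.71 to 13.91% in liver and 6.71 to 12.42% in eWAT (exact permutation test, p = 0.013). The highest of these eWAT shares was that of library 17, and library 18 was next at 10.004%. Mitochondrial rRNA genes took 8.95 to 15.95% in liver and 4.46 to 9.61% in eWAT (exact permutation test, p = 0.013). Of 13 mtDNA-encoded protein genes, 5 had no count in any library, which does not show that their transcripts were lacking. The mtDNA shares thus rest on part of its genes. Of the 7 protein genes tested, 6 were higher in liver. The complex I subunit gene mt-Nd2 led with 38070.2 to 56576 CPM in liver, median 47155, and 3202 to 10598 CPM in eWAT, median 6301 (log2 difference 2.91, SE 0.39, adjusted p = 6.09e-06). mt-Nd4 of the same complex was not called at 51999 to 82408 CPM in liver, median 59379, and 26876 to 61904 CPM in eWAT, median 37633 (log2 difference 0.61, SE 0.39, adjusted p = 0.183), and its highest eWAT level was that of library 17.
Outside mtDNA the most abundant liver genes by mean CPM were Gm42418, Apoe for apolipoprotein E, Alb for albumin, Ahsg for fetuin-A and Cyp4a10 for a fatty acid hydroxylase. In eWAT they were again Gm42418, then Car3 for carbonic anhydrase 3, Cfd for adipsin and Scd1 for a stearoyl-CoA desaturase. Fabp4 for the adipocyte fatty acid binding protein and the nuclear RNA Malat1 came next. The annotation of Gm42418 overlaps ribosomal RNA. It ran at 47634 to 136121 CPM in liver and 1945 to 36029 CPM in eWAT. Library 17 was the lowest of eWAT, and the other eWAT libraries held at least 19941 CPM. Alb, annotated at chr5:90460897-90476602, ran at 27613 to 51244 CPM in liver, median 44415, and 18.8 to 235 CPM in eWAT, median 69.9, a 409.9-fold difference (log2 difference 8.68, SE 0.67, adjusted p = 8.04e-09). Car3, at chr3:14863512-14872523, ran at 261 to 663 CPM in liver, median 387, and 7222 to 17287 CPM in eWAT, median 15321, which is 32.5-fold the other way (log2 difference -5.02, SE 0.36, adjusted p = 3.31e-09). For both genes every library of the higher tissue lay above every library of the other.

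The largest differences were ranked among called genes without overlap that reached a mean of 100 CPM in the higher tissue. At the liver end stood Mup1 at chr4:60498012-60501960, for a major urinary protein, with 65.7 to 659.8 CPM in liver, median 275, and 0 to 0.993 CPM in eWAT, median 0 (log2 difference 9.95, SE 0.73, adjusted p = 3.04e-09). The Mup genes are near-identical copies, so how their reads were shared among them is uncertain. Hsd17b6 for a steroid dehydrogenase, Fabp1 for the liver fatty acid binding protein, Fga for the fibrinogen alpha chain, and Ambp for the precursor of alpha-1-microglobulin followed, with differences of 9.37, 9.31, 9.18 and 9.14. For these 4 genes the eWAT medians were at most 6.41 CPM, and no liver library was under 161 CPM.
At the eWAT end, Timp4 (a metalloproteinase inhibitor), Apol6 (an apolipoprotein L), Sncg (gamma-synuclein) and Lep had 0 counts in every liver library. Against a floor of 3 counts over the liver libraries they were at least 1174-, 767-, 717- and 754-fold higher in eWAT. Lep, at chr6:29060220-29073877, ran at 87.9 to 382 CPM, median 182, in the eWAT libraries. Plin1 at chr7:79720218-79732903, for the perilipin that coats the adipocyte lipid droplet, had 1 count in all of liver. In eWAT it ran at 380.2 to 1078 CPM, median 675, which gives a ratio of eWAT to liver of 6780.3 (95% counting interval 1217 to 267822).

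The cell types around hepatocytes and adipocytes differed as well. Of the sinusoidal endothelial markers of liver, 5 of 6 tested were higher in liver. The C-type lectin gene Clec4g ran at 26.8 to 53.4 CPM in liver, median 37.9, and 0 to 0.847 CPM in eWAT, median 0.393 (log2 difference 6.65, SE 0.40, adjusted p = 2.89e-10). The sixth, Ptprb for a phosphatase of many vessel types, was not called (log2 difference -0.39, SE 0.24, adjusted p = 0.167), and without library 17 it was called higher in eWAT at -0.49. By contrast, all 8 general vascular endothelial markers were higher in eWAT. Cldn5 of tight junctions ran at 0.542 to 4.18 CPM in liver, median 2.61, and 14.6 to 58.5 CPM in eWAT, median 33.9 (log2 difference -3.82, SE 0.43, adjusted p = 7.01e-07). Pecam1 of endothelial contacts ran at 9.25 to 28.1 CPM in liver, median 18.1, and 92.6 to 182 CPM in eWAT, median 152 (log2 difference -3.00, SE 0.25, adjusted p = 2.15e-08). The libraries of the 2 tissues did not overlap for Clec4g, Cldn5 or Pecam1.
Resident macrophages gave a similar split. All 5 tested Kupffer cell markers were higher in liver, and Clec4f, a lectin of these cells, ran at 19.6 to 52.7 CPM in liver, median 26.4, and 0 to 1.16 CPM in eWAT, median 0.194 (log2 difference 6.26, SE 0.47, adjusted p = 4.55e-09). All 10 tested macrophage and monocyte markers were higher in eWAT, and Lyz2 for lysozyme ran at 19.6 to 76.6 CPM in liver, median 26.8, and 366 to 739 CPM in eWAT, median 484 (log2 difference -3.85, SE 0.33, adjusted p = 2.52e-08). In pieces of whole tissue fewer cells of a type and less RNA per cell cannot be told apart, here and in all that follows.
Markers of stromal and surface cells of fat were mostly higher in eWAT. Of 11 adipose stromal markers tested, 10 were higher there. Mfap5 for a microfibril protein had 2 counts in all of liver and 48.5 to 208 CPM, median 106, in eWAT. The remaining marker, Dpp4 for a surface peptidase, was higher in liver, with 27.4 to 55.9 CPM in liver, median 42, and 8.39 to 33.4 CPM in eWAT, median 18.8 (log2 difference 1.12, SE 0.30, adjusted p = 0.00369). Of 5 tested markers of hepatic stellate cells, the stromal cells of liver, 2 were higher in liver, 1 was higher in eWAT and 2 were not called. Colec11 for a collectin ran at 62.9 to 94.2 CPM in liver, median 75.7, and 1.16 to 12.7 CPM in eWAT, median 3.11 (log2 difference 4.28, SE 0.41, adjusted p = 9.37e-08). Des for desmin, which muscle cells also make, differed by -2.45. All 7 mesothelial markers tested were higher in eWAT, where Upk3b for a uroplakin ran at 8.95 to 84.6 CPM, median 45.8, against 2 counts in all of liver. Haemoglobin transcripts were higher in eWAT too, with 4 of 5 erythroid markers called. The erythroid list summed to 2834 to 11029.9 CPM in eWAT and 449.8 to 679 CPM in liver. Erythroid transcripts thus moved with the tissue, and their part in other results was not tested.

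**Figure D2:**
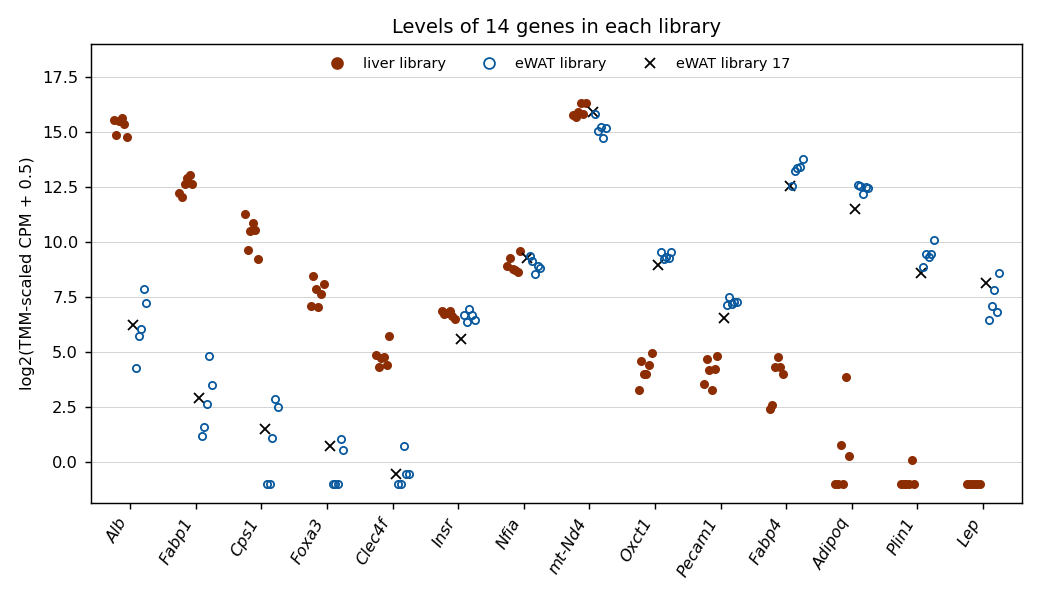
TMM-scaled CPM of 14 genes in each of 12 libraries (log2 of CPM plus 0.5), liver filled and eWAT open, with eWAT library 17 as a cross. Alb, Fabp1, Clec4f and Foxa3 lie high in all 6 liver libraries and Lep, Plin1, Adipoq, Fabp4 and Pecam1 high in all 6 eWAT libraries, whereas Insr, Nfia and mt-Nd4 overlap.

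Genes of hepatocyte transcription factors were all called. Of the liver list 12 were tested and 12 were higher in liver, with a median difference of 7.20 (6.80 with members at 0 counts in eWAT set to their bound) against -0.09 over all genes tested. Creb3l3, for a membrane-bound factor of lipid and acute-phase genes, ran at 356 to 448 CPM in liver, median 402, and 0 to 2.7 CPM in eWAT, median 0.739 (log2 difference 8.36, SE 0.35, adjusted p = 8.47e-12). Foxa3 for a forkhead pioneer factor ran at 132 to 352 CPM in liver, median 217, and 0 to 1.59 CPM in eWAT, median 0.483 (log2 difference 8.07, SE 0.47, adjusted p = 2.48e-10). Its relative Foxa1 had 0 counts in eWAT and was at least 87.5-fold higher in liver. Hnf4a, for a nuclear receptor of hepatocyte identity, ran at 165 to 295 CPM in liver, median 259.8, and 0 to 21.2 CPM in eWAT, median 0.909. The highest of these eWAT values was that of library 17. The difference was 5.57 (SE 0.71) with it, and 7.40 without it.
Factors of adipocyte identity were less one-sided. Of 13 tested 8 (61.5%) were higher in eWAT, 3 (23.1%) higher in liver and 2 not called. Of all genes tested 33.9% and 28.8% were called in these directions. The positional factor Hoxc8 had 1 count in all of liver and 78 to 255 CPM, median 224, in eWAT. Ebf1 for an early B-cell factor that drives adipocyte genes ran at 0.70 to 5.98 CPM in liver, median 1.95, and 233 to 422 CPM in eWAT, median 342 (log2 difference -6.97, SE 0.31, adjusted p = 1.64e-11). Pparg, for the master receptor of fat differentiation, ran at 0 to 2.28 CPM in liver, median 0.93, and 8.2 to 29.7 CPM in eWAT, median 16.3 (log2 difference -3.89, SE 0.49, adjusted p = 2.26e-06). All eWAT libraries lay above all liver libraries for these 3. On the other side were Klf15, Cebpb and Mlxipl, the last for the glucose-responsive factor ChREBP, with differences of 2.60, 2.32 and 2.12. Mlxipl ran at 74.2 to 128 CPM in liver, median 119.8, and 16.5 to 37.3 CPM in eWAT, median 24.8, without overlap. Cebpa (95% interval of the difference -0.01 to 0.78) and the oxysterol receptor gene Nr1h3 (-0.10 to 0.69) were not called.

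Genes of plasma proteins were mostly higher in liver. All 17 tested genes of apolipoproteins and lipoprotein assembly were higher in liver, with a median difference of 7.75. The list does not hold the apolipoprotein L genes, of which Apol6, given above, was higher in eWAT. Apob, for the structural protein of very-low-density lipoprotein, ran at 1291 to 2382 CPM in liver, median 1669, and 0.586 to 12.9 CPM in eWAT, median 3.27 (log2 difference 8.40, SE 0.51, adjusted p = 4.58e-10). Apoa4, Apoc4 and Apoh differed by 8.70, 8.65 and 8.64. Apoe differed less, with 32614 to 64194 CPM in liver, median 41831, and 7573 to 11214 CPM in eWAT, median 8808 (log2 difference 2.30, SE 0.34, adjusted p = 1.52e-05). Every eWAT library thus held at least 7573 CPM of Apoe and lay under every liver library.
Among coagulation and fibrinolysis genes 20 of 26 tested (76.9%) were higher in liver and 6 (23.1%) in eWAT. F2 for prothrombin ran at 1159 to 1581 CPM in liver, median 1352, and 0 to 8.94 CPM in eWAT, median 1.8 (log2 difference 8.80, SE 0.55, adjusted p = 6.44e-10). F13b for the carrier subunit of factor XIII ran at 151 to 272 CPM in liver, median 211, and 0 to 0.778 CPM in eWAT, median 0.31 (log2 difference 8.98, SE 0.31, adjusted p = 2.76e-12), and the fibrinogen chain genes Fga and Fgb differed by 9.18 and 8.75. On the eWAT side, F13a1 for the catalytic subunit of factor XIII ran at 0 to 1.2 CPM in liver, median 0.575, and 58.5 to 104 CPM in eWAT, median 77.9 (log2 difference -7.19, SE 0.36, adjusted p = 4.2e-11). Genes of the subunits of 1 clotting factor thus lay on opposite sides, neither with overlap. The plasminogen activator genes Plat and Plau had 2 counts each in all of liver, and the ratios of eWAT to liver were 96.4 (95% counting interval 26.5 to 798) and 67.9 (95% counting interval 18.7 to 563). Thbd for thrombomodulin, which turns thrombin from clotting on vessel walls, ran at 0.70 to 5.38 CPM in liver, median 1.41, and 36.8 to 119.9 CPM in eWAT, median 71.9 (log2 difference -4.83, SE 0.44, adjusted p = 5.64e-08).
Complement leaned the same way, with 17 of 24 tested (70.8%) higher in liver, 5 (20.8%) higher in eWAT and C2 and C4b not called. The eWAT shares of coagulation and complement were under the 33.9% of all genes tested. Their liver shares stood against 28.8%. Hc for the terminal component C5 ran at 461 to 733 CPM in liver, median 592, and 0.466 to 3.38 CPM in eWAT, median 1.16 (log2 difference 8.51, SE 0.35, adjusted p = 8.37e-12), and C8a, C8b and the lectin gene Mbl2 differed by 8.48, 8.37 and 8.90. C3 for the central component was higher in liver with 2819 to 4706 CPM in liver, median 3531, and 272 to 755 CPM in eWAT, median 471 (log2 difference 2.96, SE 0.29, adjusted p = 1.58e-07). Cfd, at chr10:79890853-79892655, for the protease that starts the alternative pathway, was higher in eWAT with 0 to 26.8 CPM in liver, median 1.34, and 10979 to 21067 CPM in eWAT, median 11995 (log2 difference -11.09, SE 0.90, adjusted p = 1.4e-08). The 26.8 CPM in liver were those of liver library 23, and no other liver library exceeded 5.38 CPM. C1qa, C1qb and Cfp for properdin, which macrophages make, were on the eWAT side at -2.17, -2.39 and -2.05. C1qa and C1qb are themselves among the macrophage and monocyte markers counted above.
All 18 tested hepatokines and circulating hormones of liver were higher in liver. Serpina6, whose product binds glucocorticoids in plasma, had 3 counts in all of eWAT and 57.3 to 150.0 CPM, median 73, in liver. Inhbe for an activin subunit, Ahsg, and Fetub for fetuin-B differed by 8.86, 8.41 and 8.38. Igf1, for insulin-like growth factor 1, differed less, with 1504 to 2291 CPM in liver, median 1943, and 399 to 701 CPM in eWAT, median 529 (log2 difference 1.84, SE 0.20, adjusted p = 6.25e-07).

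**Figure D3:**
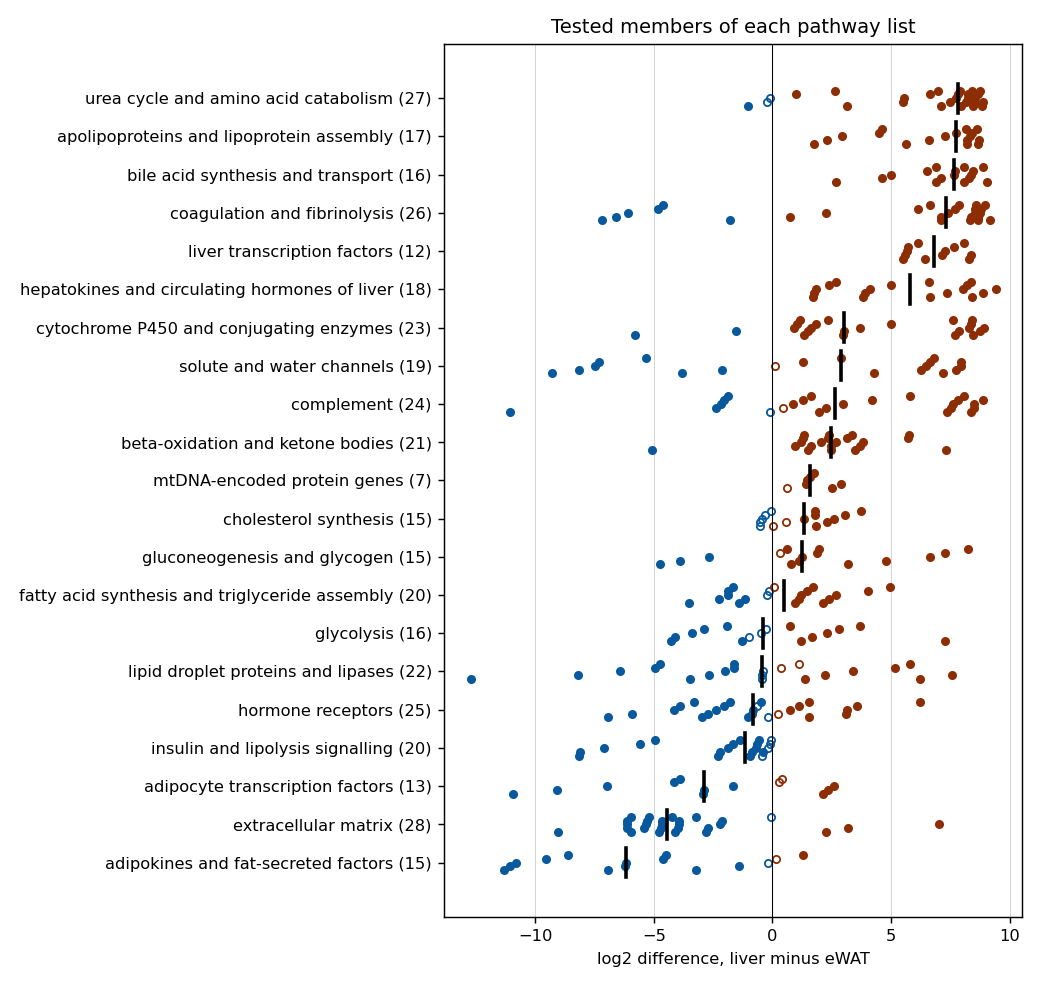
Log2 difference (liver minus eWAT) of every tested member of 21 pathway lists, 1 point per gene, called genes filled and others open, with the list median as a bar and members at 0 counts in a tissue drawn at their bound. Apolipoproteins, bile acid genes, hepatokines and liver transcription factors lie wholly to the right of 0, and matrix and adipokine genes mostly to the left.

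Nitrogen, bile acid and drug metabolism followed the plasma proteins. Of 27 tested genes of the urea cycle and amino acid catabolism 24 were higher in liver. Cps1, whose enzyme opens the urea cycle, ran at 594 to 2458 CPM in liver, median 1468, and 0 to 6.75 CPM in eWAT, median 1.98 (log2 difference 8.85, SE 0.64, adjusted p = 3.16e-09). Gls2 for the liver glutaminase, which frees ammonia for that cycle, ran at 99.1 to 362 CPM in liver, median 206, and 0 to 1.19 CPM in eWAT, median 0.0966 (log2 difference 8.88, SE 0.49, adjusted p = 1.26e-10). For both genes the lowest liver library lay far above the highest eWAT library. The exceptions were branched-chain amino acid genes. Bcat2 for the mitochondrial transaminase was higher in eWAT with 3.8 to 10.5 CPM in liver, median 5.27, and 6.81 to 18.8 CPM in eWAT, median 12.2 (log2 difference -1.02, SE 0.33, adjusted p = 0.0117), though the tissues overlapped. Bckdhb and Aldh6a1 of later steps were not called (95% intervals -0.68 to 0.19 and -0.71 to 0.54). Not every branched-chain gene was an exception, since Bckdha ran at 46.8 to 77.3 CPM in liver and 23.9 to 37.0 CPM in eWAT.
All 16 tested bile acid genes were higher in liver. Slc10a1 for the bile acid uptake carrier ran at 265 to 337 CPM in liver, median 321, and 0 to 1.79 CPM in eWAT, median 0.194 (log2 difference 9.07, SE 0.39, adjusted p = 1.21e-11). Cyp8b1, whose enzyme sets the ratio of bile acid species, ran at 1008 to 2629 CPM in liver, median 1342, and 0 to 6.18 CPM in eWAT, median 2.7 (log2 difference 8.87, SE 0.52, adjusted p = 2.89e-10). Of cytochrome P450 and conjugating enzyme genes 21 of 23 tested were higher in liver. Cyp4a14 for a fatty acid hydroxylase led with 6384 to 9564 CPM in liver, median 8478, and 0.586 to 54.6 CPM in eWAT, median 9.64 (log2 difference 8.92, SE 0.76, adjusted p = 2.8e-08). Cyp1b1 and Cyp4b1, forms known outside liver, were higher in eWAT. Cyp1b1 ran at 0 to 2.39 CPM in liver, median 1.92, and 35.2 to 138 CPM in eWAT, median 104 (log2 difference -5.78, SE 0.41, adjusted p = 2.84e-09).

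Genes of glucose metabolism lay on both sides. Of 15 tested genes of gluconeogenesis and glycogen 11 (73.3%) were higher in liver, 3 (20%) in eWAT and Gbe1 was not called. The share in eWAT was under the 33.9% of all genes tested, and that in liver stood against 28.8%. G6pc, for the last step of glucose release, ran at 571 to 1315 CPM in liver, median 953, and 0.586 to 8.94 CPM in eWAT, median 2.12 (log2 difference 8.25, SE 0.51, adjusted p = 4.79e-10). Fbp1, for an earlier step of gluconeogenesis, ran at 1555 to 3118 CPM in liver, median 2022, and 0 to 54.3 CPM in eWAT, median 5.05. Its highest eWAT value was that of library 17, and the difference was 7.30 (SE 0.88) with that library and 8.62 without it. Pck1 for the cytosolic PEP carboxykinase, which fat uses to make glycerol, overlapped between tissues at 893 to 4699 CPM in liver, median 3256, and 594 to 1924 CPM in eWAT, median 1383 (log2 difference 1.23, SE 0.39, adjusted p = 0.0107). On the eWAT side Pygb for the brain-type glycogen phosphorylase ran at 2.86 to 14.3 CPM in liver, median 8.65, and 138 to 299 CPM in eWAT, median 229 (log2 difference -4.74, SE 0.33, adjusted p = 2e-09), and the muscle-type glycogen synthase gene Gys1 and the mitochondrial Pck2 differed by -3.91 and -2.69. When library totals replaced TMM, 7 genes of this list were called higher in liver and 4 in eWAT.
Of 16 glycolysis genes tested, 7 (43.8%) were higher in liver and 6 (37.5%) in eWAT, and 3 were not called. The share in eWAT was near the 33.9% of all genes tested, and that in liver stood against 28.8%. Gckr, for a regulatory protein of glucose phosphorylation in liver, ran at 40.5 to 79.5 CPM in liver, median 55.4, and 0 to 0.795 CPM in eWAT, median 0.213 (log2 difference 7.28, SE 0.35, adjusted p = 2.58e-11). The fructokinase gene Khk and the liver pyruvate kinase gene Pklr were higher in liver by 3.67 and 2.80, and by 4.98 and 6.01 without library 17, which held most of both in eWAT. The hexokinase genes Hk2 and Hk1, Pfkp of phosphofructokinase and Pkm of pyruvate kinase were higher in eWAT, at -4.13, -2.87, -4.29 and -3.41. Gapdh and Pgk1, glycolytic genes of every cell, had at most 2.12 and 0 CPM in any library of either tissue and were not tested. A value at or near 0 in these tables therefore does not show that a transcript was lacking. With library totals 3 glycolysis genes were called higher in liver and 9 in eWAT.

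Lipid synthesis genes lay on both sides too. Of 20 tested genes of fatty acid synthesis and triglyceride assembly 10 (50%) were higher in liver, 7 (35%, near the 33.9% of all genes tested) in eWAT and Me1, Elovl1 and Acly were not called. Fasn for fatty acid synthase, at chr11:120805846-120824547, ran at 44.5 to 97.3 CPM in liver, median 74.8, and 249 to 471 CPM in eWAT, median 333 (log2 difference -2.25, SE 0.22, adjusted p = 1.44e-07). Scd1, for the desaturase that makes oleate, ran at 1645 to 5295 CPM in liver, median 2928, and 7692 to 15287 CPM in eWAT, median 11606 (log2 difference -1.87, SE 0.33, adjusted p = 0.000122). Thrsp for a regulator of lipogenesis ran at 2.81 to 13.6 CPM in liver, median 7.87, and 37.4 to 131 CPM in eWAT, median 99.1 (log2 difference -3.51, SE 0.35, adjusted p = 1.88e-07). Every eWAT library lay above every liver library for these 3. Elovl5, for an elongase of polyunsaturated fatty acids, was on the liver side with 2121 to 3486 CPM in liver, median 2656, and 132 to 276 CPM in eWAT, median 144 (log2 difference 4.02, SE 0.25, adjusted p = 6.76e-10). Elovl6 and Fads1, an elongase and a desaturase gene, differed by 2.66 and 2.37. With library totals the list split into 7 higher in liver and 10 higher in eWAT, so its balance depends on the scaling.
Fatty acid oxidation and ketone body genes were higher in liver for 20 of 21 tested. Bdh1, whose enzyme interconverts the ketone bodies, ran at 283 to 540.2 CPM in liver, median 419.6, and 0.586 to 4.67 CPM in eWAT, median 1.85 (log2 difference 7.30, SE 0.40, adjusted p = 1.36e-10). The peroxisomal genes Ehhadh and Acaa1b differed by 5.71 and 5.74. The exception was Oxct1, for the enzyme with which other organs use the ketone bodies that liver exports. It ran at 9.22 to 30.2 CPM in liver, median 18.1, and 503 to 749 CPM in eWAT, median 625 (log2 difference -5.07, SE 0.25, adjusted p = 5.39e-11), and the tissues did not overlap.
Of the lipid droplet and lipase genes 10 of 22 tested (45.5%) were higher in eWAT, 7 (31.8%, near the 28.8% of all genes tested) in liver and 5 were not called. Without library 17 the list had 10 genes higher in eWAT and 8 higher in liver. Lpl for lipoprotein lipase ran at 14.6 to 33.7 CPM in liver, median 26.2, and 2873 to 10118 CPM in eWAT, median 7924 (log2 difference -8.20, SE 0.42, adjusted p = 6.74e-11). Plin4 for a perilipin of small droplets ran at 11.2 to 42.7 CPM in liver, median 18.1, and 1260.0 to 2512 CPM in eWAT, median 1811 (log2 difference -6.42, SE 0.34, adjusted p = 8.64e-11). Lipe for hormone-sensitive lipase ran at 15.6 to 45.7 CPM in liver, median 27.1, and 379 to 1246 CPM in eWAT, median 935 (log2 difference -4.96, SE 0.32, adjusted p = 9.35e-10). Library 17 was the lowest of eWAT for each of these, and was still above all of liver. Ces3a for a carboxylesterase, Aadac for an arylacetamide deacetylase, and the droplet genes Fitm1 and Cideb were higher in liver by 7.58, 6.22, 5.82 and 5.18. Without library 17 the differences of Aadac and Cideb were 7.67 and 7.08. Mgll for monoglyceride lipase was not called at 765 to 2287 CPM in liver, median 1193, and 1107 to 2349 CPM in eWAT, median 1756 (95% interval -1.02 to 0.10).
Cholesterol synthesis was higher in liver for 8 of 15 genes tested, and none was called higher in eWAT. Hsd17b7, for a reductase of the later steps, ran at 75.3 to 174 CPM in liver, median 152, and 6.35 to 17.5 CPM in eWAT, median 9.46 (log2 difference 3.75, SE 0.25, adjusted p = 1.46e-09), and the tissues did not overlap. Hmgcs1 and Acat2 of the early steps were among the 7 not called (95% intervals -1.06 to 0.00 and -0.40 to 0.44). Hmgcs1 was called higher in eWAT without library 17, at -0.64, and with library totals, at -1.41. Without library 17 the list had 9 genes higher in liver and 1 higher in eWAT, and 7 and 6 when library totals replaced TMM.

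Related genes were set side by side in 21 pairs, most of them members of 1 gene family and some, such as Gcgr and Adrb3, only of like function. The first of each pair was set down as the liver form for this comparison. That choice is loose for some pairs, since Acaca and Scd1 are known in both organs. In 14 pairs the first was called higher in liver and the second higher in eWAT. The log2 ratio of first to second was taken with 0.5 CPM added to both. It did not overlap between tissues in 15 of the 17 pairs with both members tested, each with liver above. Like the gene lists, the pairs were chosen with earlier results of these data known. These counts therefore describe the pairs and do not test whether they divide by organ. No share over other pairs was taken, and of single genes tested 43.3% did not overlap. The glucose transporter genes Slc2a2 (GLUT2) and Slc2a4 (GLUT4) had log2 ratios of 8.30 to 9.61 in liver and -6.38 to -2.40 in eWAT. Slc2a2, at chr3:28697903-28731359, ran at 325 to 389 CPM in liver, median 350.3, and 0 to 3.97 CPM in eWAT, median 2.21 (log2 difference 7.20, SE 0.31, adjusted p = 1.15e-11). Slc2a4, at chr11:69942539-69948188, had 2 counts in all of liver and 23 to 57.8 CPM, median 34.9, in eWAT.
The fatty acid binding protein genes were nearly opposite in size. Fabp1, at chr6:71199827-71205023, ran at 4222 to 8487 CPM in liver, median 6327, and 1.76 to 28 CPM in eWAT, median 6.41 (log2 difference 9.31, SE 0.63, adjusted p = 1.5e-09). Fabp4, at chr3:10204088-10208576, ran at 4.88 to 26.6 CPM in liver, median 17.4, and 6021 to 14109.6 CPM in eWAT, median 10128 (log2 difference -9.28, SE 0.52, adjusted p = 1.62e-10). Aqp9, for the channel by which liver takes up glycerol, ran at a median of 364 CPM in liver and at 0.847 to 15 CPM, median 2.34, in eWAT, highest in library 17 (log2 difference 6.28, SE 0.50, adjusted p = 1.11e-08). Without that library it differed by 7.32. Aqp7, for the channel by which adipocytes let glycerol out, had 1 count in all of liver and 36.4 to 80.9 CPM, median 65.3, in eWAT. The lipase genes Lipc and Lpl differed by 4.50 and -8.20, and the glycogen synthase genes Gys2 and Gys1 by 6.65 and -3.91.
The receptors of fasting signals were paired as well. Gcgr for the glucagon receptor ran at 121 to 163 CPM in liver, median 144, and 0.966 to 4.17 CPM in eWAT, median 1.36 (log2 difference 6.22, SE 0.29, adjusted p = 1.92e-11). Adrb3, for the adrenergic receptor that drives lipolysis, ran at 2.1 to 12.6 CPM in liver, median 5.59, and 94 to 546 CPM in eWAT, median 500.0 (log2 difference -5.91, SE 0.49, adjusted p = 1.9e-08).
Several pairs were different. The phosphofructokinase genes Pfkl and Pfkp and the acetyl-CoA carboxylase genes Acacb and Acaca were all 4 higher in eWAT. The log2 ratio of Acacb to Acaca overlapped, at -1.77 to -0.72 in liver and -1.91 to -0.94 in eWAT. That of the insulin receptor substrate genes Irs2 and Irs1 overlapped too. Irs2 was higher in eWAT with 34.3 to 114 CPM in liver, median 69.9, and 70.8 to 191 CPM in eWAT, median 153 (log2 difference -0.95, SE 0.27, adjusted p = 0.00513), and Irs1 was not called (95% interval -1.03 to 0.15). Pygm, Cpt1b, Scd2 and Mat2a did not pass the filter on low counts, so 4 pairs lack the test of a member and are left out of the count of ratios.

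**Figure D4:**
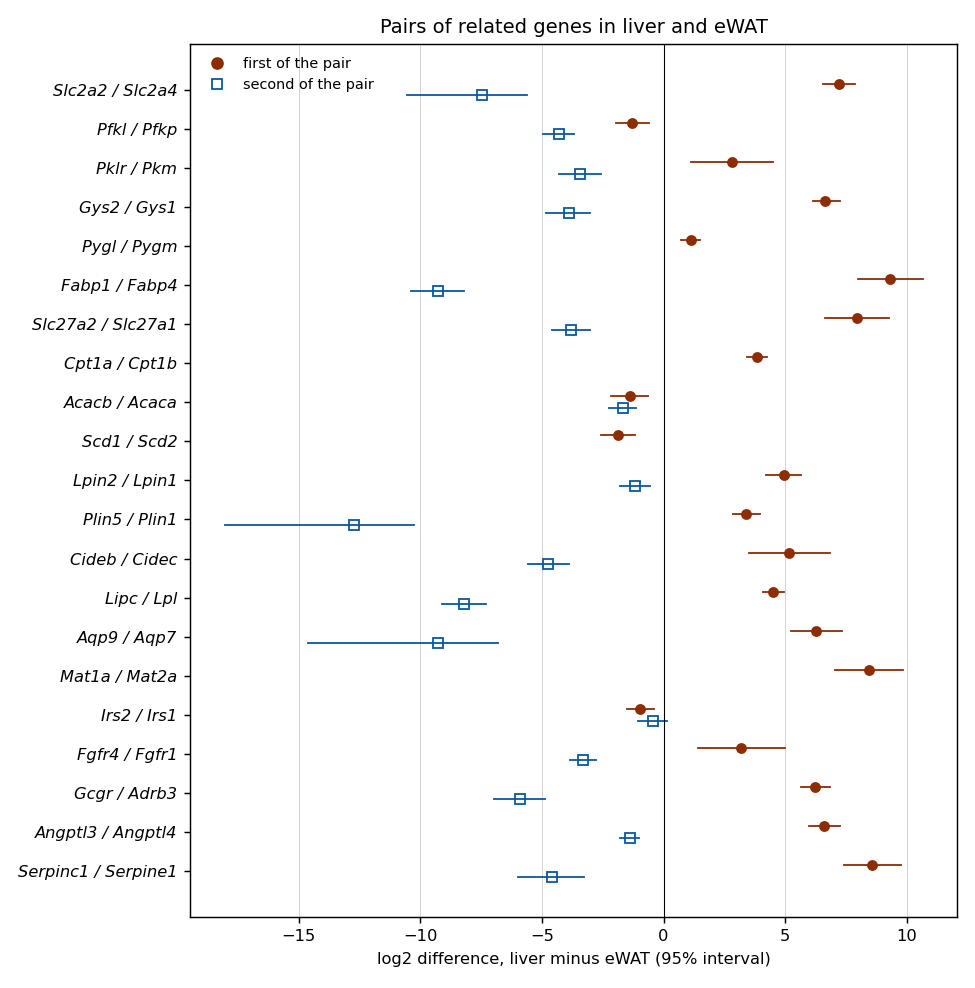
Log2 difference (liver minus eWAT) with 95% interval for both members of 21 pairs of related genes, the first of each pair as filled circles and the second as open squares, members not tested left out. Members with 1 to 3 counts in a tissue are drawn at the ratio of their counts with its counting interval. Filled circles lie right of 0 and squares left of it in 14 pairs, with Pfkl, Acacb, Scd1 and Irs2 on the eWAT side.

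Genes of hormones and other factors secreted by fat were mostly higher in eWAT. Of 15 tested 12 were higher in eWAT, Rarres2 was higher in liver and Nampt and Cxcl12 were not called. Adipoq for adiponectin, at chr16:23146536-23158028, ran at 0 to 14.3 CPM in liver, median 0.351, and 2889.6 to 6122 CPM in eWAT, median 5658 (log2 difference -10.83, SE 0.82, adjusted p = 5.82e-09). The liver value of 14.3 CPM came from liver library 23, and no other liver library exceeded 1.2 CPM. Retn for resistin ran at 0 to 1.2 CPM in liver, median 0, and 945 to 1339.6 CPM in eWAT, median 1135 (log2 difference -11.32, SE 0.42, adjusted p = 3.1e-12). Rarres2 for chemerin, which is also a product of liver, ran at 238 to 377 CPM in liver, median 301, and 87.4 to 154 CPM in eWAT, median 136 (log2 difference 1.29, SE 0.17, adjusted p = 5.24e-06).
Hormone receptor genes were on both sides, 14 of 25 tested (56%) higher in eWAT, 8 (32%) in liver and 3 not called. The share in liver was near the 28.8% of all genes tested, and that in eWAT stood against 33.9%. Next to Gcgr in liver stood Adra1b for the alpha-1B adrenergic receptor, with 13.3 to 29.3 CPM in liver, median 21.3, and 0.966 to 3.39 CPM in eWAT, median 1.87 (log2 difference 3.55, SE 0.31, adjusted p = 3.18e-08). Egfr for the epidermal growth factor receptor ran at 185 to 393 CPM in liver, median 292, and 27.5 to 43.6 CPM in eWAT, median 32.3 (log2 difference 3.10, SE 0.20, adjusted p = 1e-09). Fgfr4, for the receptor of the ileal hormone that restrains bile acid synthesis, ran at 7.03 to 20.1 CPM, median 13.9, in liver and was called at 3.16 (SE 0.84). All eWAT counts of Fgfr4 were in library 17, at 7.78 CPM, and without it liver was at least 89.9-fold higher, against 3 counts over the other 5 eWAT libraries. On the eWAT side beside Adrb3, Npr3 for the clearance receptor of natriuretic peptides ran at 0.542 to 4.9 CPM in liver, median 1.72, and 157 to 475 CPM in eWAT, median 232 (log2 difference -6.92, SE 0.39, adjusted p = 1.81e-10). Hcar2 for the niacin receptor and Sort1 for a sorting receptor differed by -4.17 and -3.91. Insr for the insulin receptor overlapped at 90.7 to 116 CPM in liver, median 107, and 47.7 to 123 CPM in eWAT, median 93.6 and was not called (95% interval -0.17 to 0.63). Adipor1 for an adiponectin receptor was not called either (-0.50 to 0.08).
Genes of insulin and lipolysis signalling inside the cell were higher in eWAT for 16 of 20 tested, and none was called higher in liver. Without library 17 the number higher in eWAT was 15. Prkar2b, for a regulatory subunit of protein kinase A, ran at 0 to 3.5 CPM in liver, median 1.14, and 176 to 739 CPM in eWAT, median 429.7 (log2 difference -8.16, SE 0.53, adjusted p = 9.35e-10). Cav1, for a protein of the caveolae that cover the adipocyte surface, ran at 2.11 to 5.21 CPM in liver, median 3.54, and 550.3 to 1599 CPM in eWAT, median 982 (log2 difference -8.13, SE 0.35, adjusted p = 1.21e-11). Cavin1 of the same structures ran at 13.9 to 45.7 CPM in liver, median 21.7, and 2557 to 4438 CPM in eWAT, median 3483 (log2 difference -7.11, SE 0.34, adjusted p = 3.36e-11). Adcy5 for an adenylyl cyclase ran at 0 to 1.16 CPM in liver, median 0.286, and 11.7 to 35.4 CPM in eWAT, median 28.1 (log2 difference -5.57, SE 0.51, adjusted p = 5.2e-08). None of these 4 overlapped. Prkaca and Prkar1a for common subunits of protein kinase A, Ptpn1 for a phosphatase that restrains insulin signalling, and Irs1 were not called. With library totals all 20 genes were called higher in eWAT.

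Among solute and water channel genes 11 of 19 tested (57.9%) were higher in liver, 7 (36.8%) in eWAT, and Slc2a1 (GLUT1) was not called. The share in eWAT was near the 33.9% of all genes tested, and that in liver stood against 28.8%. Slc2a1 ran at 15.4 to 32.4 CPM in liver, median 20.6, and 11.6 to 46.9 CPM in eWAT, median 15.8, highest in library 17, and without that library it was called higher in liver, at 0.64. Slc27a2, whose protein brings in and activates fatty acids, ran at 991 to 1165 CPM in liver, median 1060.0, and 0 to 11.1 CPM in eWAT, median 1.51 (log2 difference 7.94, SE 0.62, adjusted p = 8.16e-09), and differed by 8.56 without library 17. Slc38a4 for an amino acid carrier ran at 1290.2 to 1628 CPM in liver, median 1552, and 1.17 to 15.2 CPM in eWAT, median 5.01 (log2 difference 7.75, SE 0.46, adjusted p = 3.04e-10). In eWAT, Slc7a10 for a carrier of small neutral amino acids ran at 15.6 to 78.4 CPM, median 54.1, and, with 0 counts in liver, was at least 160.2-fold higher. Slc1a5 for a glutamine carrier ran at 0 to 2.28 CPM in liver, median 1.95, and 287 to 636 CPM in eWAT, median 451 (log2 difference -8.15, SE 0.35, adjusted p = 1.21e-11).
The extracellular matrix was higher in eWAT for 24 of 28 genes tested, with a median difference of -4.44. Lox, whose enzyme cross-links collagen, ran at 0 to 1.2 CPM in liver, median 0.286, and 183 to 311 CPM in eWAT, median 227 (log2 difference -9.06, SE 0.38, adjusted p = 8.37e-12). Col1a1 of fibrillar collagen ran at 0 to 14.3 CPM in liver, median 3.05, and 223 to 383 CPM in eWAT, median 348 (log2 difference -6.14, SE 0.45, adjusted p = 3.98e-09). Col6a2 of the collagen around adipocytes ran at 0.70 to 2.89 CPM in liver, median 1.68, and 82 to 134 CPM in eWAT, median 111 (log2 difference -5.98, SE 0.26, adjusted p = 1.21e-11). The 3 matrix genes higher in liver were Vtn for the plasma protein vitronectin, Fn1 for fibronectin and the basement membrane collagen gene Col18a1. Vtn ran at 439 to 735 CPM in liver, median 644, and 1.76 to 8.54 CPM in eWAT, median 3.69 (log2 difference 7.03, SE 0.31, adjusted p = 1.24e-11). Fn1 ran at 1326 to 1934 CPM in liver, median 1507, and 148 to 552 CPM in eWAT, median 319 (log2 difference 2.25, SE 0.30, adjusted p = 5.41e-06). Col18a1 ran at 352 to 458 CPM in liver, median 403, and 41.9 to 50.2 CPM in eWAT, median 42.6 (log2 difference 3.20, SE 0.14, adjusted p = 1.21e-11). No matrix gene named here overlapped between the tissues.

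Genes with like levels in both organs included factors of general cell functions. Among the 511 whose interval lay within 0.5 of 0, the 10 most abundant nuclear genes, ranked by the lower of both tissue means, were led by Itm2b for a membrane protein, the nuclear factor I genes Nfia and Nfib, and Arpc2 for an actin-branching subunit. The others were Jak1 for a cytokine receptor kinase, Wdr26 for a ubiquitin ligase subunit, the translation factor genes Eif3a and Eif5b, Srrm2 for a splicing protein and Ndufa2 of complex I. Itm2b ran at 557 to 1150.4 CPM in liver, median 863, and 660.5 to 1144 CPM in eWAT, median 889 (95% interval -0.45 to 0.39). Jak1 ran at 349 to 469.7 CPM in liver, median 435, and 425 to 486 CPM in eWAT, median 429 (95% interval -0.35 to 0.24). Nfib ran at 417 to 470.3 CPM in liver, median 443, and 367 to 557 CPM in eWAT, median 434 (95% interval -0.32 to 0.28). With library totals Itm2b, Jak1 and Nfib were called higher in eWAT, at -0.93, -0.95 and -0.92, near the median of all genes, so likeness is stated relative to TMM.

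Some genes varied strongly within a tissue. In eWAT library 17 the genes standing over every other eWAT library included Dcdc2a, Prom1, Greb1, Mmp7, Cldn2 and Epcam, which epithelia express, and Foxj1 and Sntn of motile cilia. Epcam was at 150.4 CPM there and at 0 to 0.424 CPM in the other eWAT libraries. Of 12 epididymis markers none passed the filter on low counts, and their sum was at most 15.2 CPM in any eWAT library and 8.76 CPM in library 17. The highest sum was that of library 18. Most of the sum in library 17 was Adam7, which stood there above every other library of both tissues. Genes outside that list stood high in library 17, and the following were picked after their values were seen. Pax8, for a factor of kidney, thyroid and genital duct epithelia, was at 55.3 CPM there and at 0 in the other eWAT libraries. Ptgds, for a prostaglandin D synthase known in brain and the male genital tract, was at 512 CPM there and at 1.27 to 11.7 CPM in the others. No source was assigned to these transcripts. Cldn2 of tight junctions ran at 77 to 422 CPM, median 175, in liver, at 628 CPM in library 17 and at 0 to 1.79 CPM in the other eWAT libraries. Its difference was 0.95 (adjusted p = 0.543) with library 17 and 8.16 without it. Dsp of desmosomes went from 2.12 (adjusted p = 0.0948) to 7.71, and the cadherin gene Cdh1 from 2.18 (adjusted p = 0.0747) to 7.46. Sox9, for a factor of bile ducts and other epithelia, went from 0.60 (adjusted p = 0.548) to 3.48. For these 4 genes the call higher in liver exists only without that library.
Skeletal muscle genes marked other libraries. Myh4, for a fast myosin, ran at 1.63 to 33.7 CPM in liver, median 4.41, and 0.973 to 315 CPM in eWAT, median 31 (log2 difference -3.10, SE 1.10, adjusted p = 0.0217). It was highest in eWAT library 25 and, within liver, in library 24, and the tissues overlapped. In liver the acute-phase genes Saa1 and Saa2, close copies of each other, ran from 74.9 to 5145 CPM and from 21.0 to 1899 CPM. Both were lowest in libraries 13, 14 and 15 and highest in library 23. The urinary protein genes Mup17 and Mup12 ran from 208 to 1691 CPM and from 306 to 2999 CPM, lowest in liver library 15. All 4 still lay above every eWAT library. Liver transcripts were scarce in eWAT, where the median over 8 abundant liver genes was 0.0436 to 0.732% of their liver level, highest in library 26. Fat transcripts in liver, over 8 genes, came to at most 0.203% of their eWAT level at the median, in library 23. The part of such transcripts in other results was not tested.

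**Figure D5:**
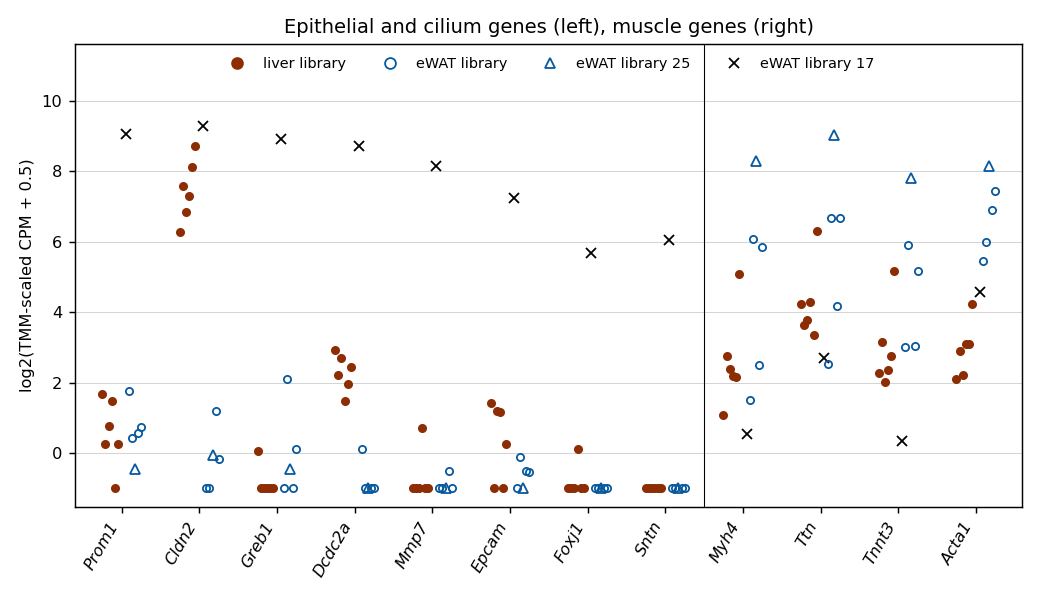
TMM-scaled CPM (log2 of CPM plus 0.5) of 8 epithelial or cilium genes and 4 muscle genes in 12 libraries, liver filled, eWAT open, library 17 as a cross and library 25 as a triangle. The cross stands alone above all open circles for the first 8 genes, and the triangle lies highest for the muscle genes.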

How the data were processed

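Per the labels, RNA of liver and eWAT was taken up in TRIzol and made into QuantSeq 3′ mRNA-Seq FWD libraries, read as 50-bp single ends on a HiSeq 2500. The authors used BBDuk for trimming, STAR for alignment against GRCm38 and featureCounts for the tally per gene. The deposited values are raw counts for 54838 Ensembl genes, 12 columns of which were used here and 24 of other tissues were not. Tool versions and the strand setting of the counting are not given in the sources used here.

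Columns were joined by gene identifier. The tissue of a column is that of its table. Genes were kept by filterByExpr with a minimum count of 10, scaled by TMM and tested with edgeR 4.0.16 quasi-likelihood tests (glmQLFit, glmQLFTest, and glmTreat against 2-fold) under R 4.3.3, adjusted by Benjamini-Hochberg over all genes tested. DESeq2 1.42.0 and limma 3.58.1 were alternatives. Labels do not say how samples were separated beyond their tolerance group, so p-values measure the spread between these libraries, which may be partly technical. Shares of counts were compared by exact permutation over the libraries. Floors of 3 counts were worth 1.63 to 2.11 CPM in a liver library and 0.58 to 1.76 CPM in an eWAT library. Intervals on counts and floors cover counting error only.

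The members and gene lists were chosen with earlier results of these data known. Named were, per list, up to 4 members with the largest difference each way and those not called, both members of the pairs, the 10 largest differences each way above 100 CPM, the 10 most abundant genes among those alike and the 10 most abundant of each tissue. Hnf4a, Pparg, C3, Igf1, Pck1, Cyp2e1, Gapdh, Pgk1, the genes of eWAT library 17 and the Saa and Mup17 and Mup12 genes were added after their values were seen. Some genes of the lists and pairs are not reported here, and counts are over the others.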

Additional observations from a re-analysis of the deposited data

Results flagged for a closer look

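Of 197 groups of 6 values printed in the report (a gene, list sum or share in 1 tissue), 39 held a library whose gap to the next exceeded the share of the group's range that Dixon's test allows at the 95% level. Chance flags about 1 in 20 groups, and groups of genes that move together are not independent. Some genes were named because a library stood out in them. Among these were Cldn2, Ptgds, Epcam and Pax8 in eWAT, and Saa1, Saa2 and Mup12 in liver. Their flags follow from that choice, so the 39 cannot be set against the chance rate.

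In 14 the library was eWAT library 17. It was highest for Cldn2 (628 CPM), Ptgds (512 CPM), Elovl5 (276 CPM), Epcam (150.4 CPM), Pax8 (55.3 CPM), Fbp1 (54.3 CPM), Slc2a1 (46.9 CPM), Hnf4a (21.2 CPM), Aqp9 (15 CPM) and Fgfr4 (7.78 CPM). It was lowest for Car3 (7222 CPM), Hoxc8 (78.0 CPM), the summed adipocyte markers (34200.3 CPM) and the share of counts in the 10 most abundant genes (22.2%).

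In 7 it was eWAT library 26, highest for genes of hepatocytes. The values were 54.6 CPM of Cyp4a14, 28.0 CPM of Fabp1, 8.94 CPM of F2, 8.94 CPM of G6pc, 4.17 CPM of Gcgr, 1.79 CPM of Slc10a1 and 2705 CPM of the summed hepatocyte markers. In eWAT library 25 the values flagged were 315 CPM of Myh4, 739 CPM of Lyz2, 17.5 CPM of Hsd17b7 and 1.16 CPM of Clec4f, each the highest. In eWAT library 22 it was 12.7 CPM of Colec11, in eWAT library 18 it was 21067 CPM of Cfd, and in eWAT library 27 it was 475 CPM of Npr3, each the highest.

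In liver, library 23 was highest for Saa1 (5145 CPM), Saa2 (1899 CPM), Cfd (26.8 CPM) and Adipoq (14.3 CPM). Library 24 was highest for Mgll (2287 CPM), Lyz2 (76.6 CPM), Clec4f (52.7 CPM) and Myh4 (33.7 CPM), and lowest, at 0 CPM, for Cyp1b1. Library 15 was lowest for Mup12 (306 CPM), and library 14 was lowest for Slc38a4 (1290.2 CPM). Explanations of these values were not tested.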

How the results depend on the processing

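Counts of calls depended most on the scaling and the filter. When library totals replaced TMM, 1383 genes were called higher in liver and 6680 higher in eWAT, and 862 and 3738 past 2-fold, since the median of all genes then moved from -0.09 to -0.98. With at least 50 counts in 6 libraries fewer genes were tested, and the counts were 1719, 1890, 879 and 953. With no filter 3142 genes were over 2-fold higher in eWAT. DESeq2, limma-voom, DESeq2 size factors, upper quartile scaling, library sizes without the 100 most abundant genes, adjusted p under 0.01 and mtDNA genes left out kept all 4 counts within 1.5 times, as did each library left out in turn, with 2885 to 3218 genes higher in liver and 3263 to 3661 higher in eWAT.

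Upper quartile scaling gave 2544 higher in liver and 3981 in eWAT, and library sizes without the 100 most abundant genes 2139 and 4732. Of 20 named genes not called with TMM, library totals called 14 higher in eWAT. These were 4 that turned sign (Acat2 -0.87, Insr -0.64, Nr1h3 -0.58 and Cebpa -0.50) and 10 that kept it (Adipor1, Aldh6a1, Bckdhb, Hmgcs1, Irs1, Itm2b, Jak1, Mgll, Nfib and Ptprb), and the calls of Cyp2e1, Dpp4, Pck1 and Pklr were lost. Of 156 named genes with a fit 138 stayed on their side of the threshold, 153 with upper quartile scaling and all 156 with DESeq2 size factors. Without eWAT library 17, chosen after seeing the data, 149 did. The shares in mtDNA and in the 10 most abundant genes kept direction and threshold under each library left out, medians, protein-coding mtDNA genes and 50 genes. No paired analysis was possible because the columns carry library numbers that match no label of both tissues. Depth limits what can be said of genes near the floor.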
